A study of Mus musculus with 5 samples.

Results

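Kinesins are motor proteins that use ATP to walk along microtubules or to take them apart. The genes described here are the 45 rows of the deposited table whose symbol begins with Kif, Kifc or Klc and a digit, or is Kifap3, out of 56324 rows in all. Rows shared by several symbols and pseudogene names were left out, so Kif17, whose row is shared with Sh2d5, and Kif4-ps are not members. The samples were 2 of spermatocytes, the germ cells in meiosis, and 3 of spermatids, the haploid cells that form from them and turn into sperm. All 5 came from male C57Bl/6 mice aged 12 weeks, were purified by sedimentation at unit gravity, and carry no other genotype or treatment in their labels. Polyadenylated RNA was sequenced with a stranded kit, and the table gives DESeq-normalized counts, that is, read counts per gene divided by a size factor per library. The series title concerns intron retention in meiosis, but the values are 1 per gene, so levels of whole genes were compared here. Whether the samples of a group came from separate animals is not in the labels, and p-values then cover no more than the spread among these samples. That spread may be technical.

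Kinesins are grouped in families by their motor domain. Kinesin-1 is a pair of heavy chains with 2 light chains that bind cargo. Kinesin-2 moves material outward along the axoneme of cilia and flagella, kinesin-3 carries vesicles, and kinesin-4 members act on chromosomes and on microtubule growth. Kinesin-5, kinesin-6, kinesin-10 and kinesin-12 build the spindle and the midzone where the cell divides, kinesin-8 and kinesin-13 shorten microtubules at their ends, and kinesin-14 walks toward the minus end. Male germ cells use them in the meiotic spindle, and later in the manchette, a skirt of microtubules around the spermatid nucleus, and in the growing tail.

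Of the 45 members, 44 were tested and 37 of these, or 84.1%, differed between the cell types, as did 77.1% of all genes tested. In spermatids 22 were higher and 15 lower, and 7 did not pass the threshold (limma, Benjamini-Hochberg adjusted p under 0.05 over the whole table). Of all genes tested 40.6% were higher and 36.5% lower. The members' shares of 50% higher and 34.1% lower stand near that background. The median log2 fold change was 0.53 over the 44 members and 0.07 over all genes tested. Among the members 9 were at least 4-fold higher and 3 at least 4-fold lower, or 20.5% and 6.82%, where all genes gave 24.6% and 17.6%. The values of the cell types did not overlap for 39 of the 44, or 88.6%, where all genes gave 85.8%. The spermatids lay above for 23 of them and below for 16 (44.3% and 41.5% of all genes). The balance depended on the scaling: with every library rescaled to the same total 16 members were higher and 19 lower (30.5% and 49.4% of all genes), and with quantile-normalized libraries 17 and 19 (33.8% and 46.5%). Equal totals moved the median of all genes to -0.57, so directions below are relative to the deposited scaling, and members whose direction turned are named. Kif12 had no read in any of the 5 libraries. A count of 0 allows up to 3 reads in each library.

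**Figure D1:**
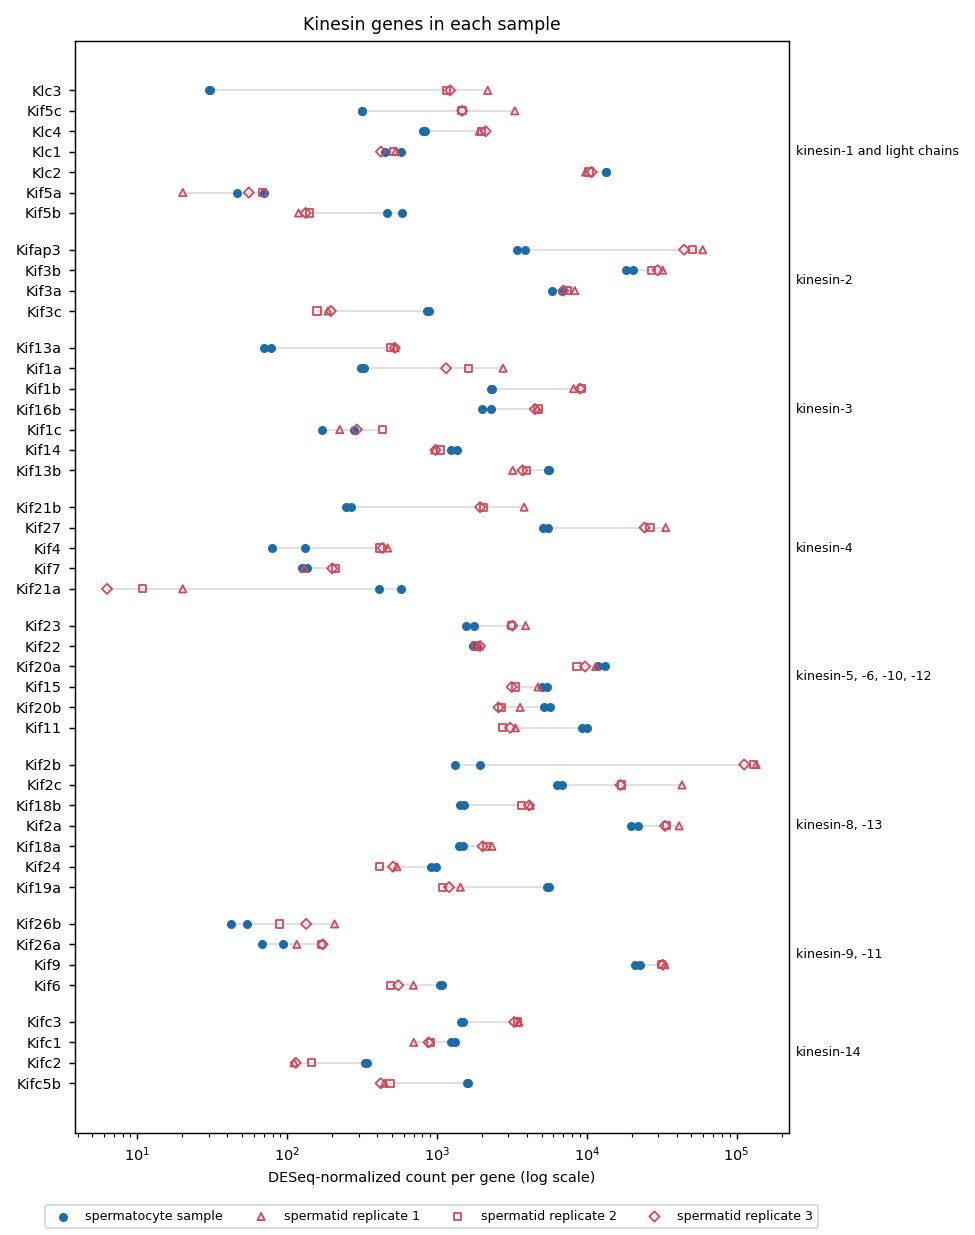
DESeq-normalized counts (log axis) of the 44 tested kinesin genes, 1 row per gene, with filled points for the 2 spermatocyte samples and open symbols for the 3 spermatid samples. Kif2b runs from 1312 in a spermatocyte sample to 135368 in a spermatid sample, and Kif21a from 580 in spermatocytes down to 6.29 in spermatids.

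The libraries held 52784231 to 84361908 reads. The 8 spermatid markers were all higher in spermatids, and 6 of 8 spermatocyte markers were higher in spermatocytes, with Sycp1 and Ccna1 not past the threshold. Levels of the spermatid markers in spermatocytes were 1.06% to 1.82% of those in spermatids. The 8 Sertoli cell markers summed to 59692 and 78971 in the spermatocyte samples and to 1425 to 2142 in the spermatid samples, and none was at 0 in either group. Of the other cell types, all 5 Leydig cell markers matched in the table were lower in spermatids, whereas 3 of 4 peritubular myoid, 2 of 4 endothelial, 4 of 7 macrophage and blood and 3 of 8 spermatogonial markers were higher. Of the 45 member rows 32 overlap another row in the genome and 8 overlap a named gene (Kif3c, Kif4, Kif7, Kif20a, Klc1, Klc3, Kifc2 and Kifc3). The strand setting of the counting is not given in the sources used here, and the part of the overlapping genes' reads in the levels of these 8 was not tested. Fewer cells of a type and less RNA per cell cannot be told apart in such bulk samples.

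Among kinesins that shorten microtubules Kif2b rose the most and Kif19a fell the most. Kif2b, a kinesin-13 whose gene has a single exon (chr11:91575286-91577609, minus strand, mm10), was at 1936 and 1312 in the spermatocyte samples and at 135368, 129395 and 112577 in the spermatid samples. Every spermatid value was far above both spermatocyte values, and the log2 fold change was 6.30 ± 0.17 (SE; limma adjusted p = 5.3e-07). Its spermatocyte level was 1.29% of its spermatid level, inside the range of the spermatid markers given above. In spermatocyte replicate 2 Kif2b was lower than in replicate 1, as were all 8 spermatid and all 8 spermatocyte markers. The ratio of replicate 2 to replicate 1 was 0.68 for Kif2b. Its median was 0.73 over the spermatid markers, 0.92 over the spermatocyte markers and 0.97 over all genes tested. The part of spermatid RNA in the spermatocyte level of Kif2b was not tested. Kif2a, the kinesin-13 with the broadest known expression, was at 21861 and 19671 in spermatocytes and at 41386, 33971 and 33269 in spermatids. Its log2 fold change of 0.80 ± 0.12 (limma adjusted p = 0.00086) was 0.15 at equal library totals and 0.08 in quantile-normalized libraries, neither past the threshold (limma adjusted p = 0.11 and 0.34). Kif2c, which corrects faulty attachments at centromeres, was at 6833 and 6382 in spermatocytes and at 43245, 17145 and 16785 in spermatids, so that 1 spermatid sample stood far above the other two. The log2 fold change of Kif2c was 1.81 ± 0.40 (limma adjusted p = 0.005), and 1.36 without spermatid replicate 1. Kif24, a kinesin-13 that holds back the formation of cilia at the centriole, went the other way, with 991 and 915 in spermatocytes and 541, 414 and 510 in spermatids (log2 fold change -0.97 ± 0.16).

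The kinesin-8 genes were also split. Kif19a, which limits the length of cilia by shortening microtubules at their tips, was at 5588 and 5436 in spermatocytes and at 1436, 1084 and 1206 in spermatids. With no overlap between the groups, it fell by 2.16 ± 0.14 on the log2 scale (limma adjusted p = 1.3e-05). Kif18b, which acts on astral microtubules, rose from 1467 ± 69.3 (SD, n = 2) to 3996 ± 297 (SD, n = 3), a log2 fold change of 1.44. Kif18a, which dampens the movements of chromosomes on the spindle, was 0.58 higher on the log2 scale, but its value was -0.07 with equal totals.

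Kif2b, Klc3 and Kifap3 carry the largest rises, and Kif11 the largest fall among kinesin-5, kinesin-6, kinesin-10 and kinesin-12. Kifc1 and Kifc5b cannot be fully told apart by their sequence. For these reasons the promoters of these 6 members are printed. Each runs 5′ to 3′ from 250 bases before to 50 bases after the gene start, from RefSeq on GRCm38.p6, the assembly that mm10 names. Capitals mark a CCAAT box (CCAAT), a CHR element (TTTGAA) or a cyclic AMP response core (TGACGT), on either strand. They also mark, on either strand, a part of the X-box (GTTGCC) and a MYB site (AACNGTT).
Kif2b, chr11:91577506-91577805, minus strand: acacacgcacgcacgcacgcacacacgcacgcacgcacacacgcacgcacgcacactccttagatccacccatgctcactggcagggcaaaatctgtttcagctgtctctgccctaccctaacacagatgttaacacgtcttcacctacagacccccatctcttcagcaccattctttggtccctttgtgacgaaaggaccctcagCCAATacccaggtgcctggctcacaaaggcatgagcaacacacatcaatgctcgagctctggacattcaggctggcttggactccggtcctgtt
Klc3, chr7:19404055-19404354, minus strand: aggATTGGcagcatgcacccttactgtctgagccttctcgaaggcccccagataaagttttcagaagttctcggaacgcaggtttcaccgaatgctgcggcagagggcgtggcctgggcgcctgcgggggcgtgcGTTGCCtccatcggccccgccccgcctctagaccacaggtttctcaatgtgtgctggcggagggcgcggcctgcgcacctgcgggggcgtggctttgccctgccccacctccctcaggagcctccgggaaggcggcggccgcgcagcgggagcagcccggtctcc
Kifap3, chr1:163779333-163779632, plus strand: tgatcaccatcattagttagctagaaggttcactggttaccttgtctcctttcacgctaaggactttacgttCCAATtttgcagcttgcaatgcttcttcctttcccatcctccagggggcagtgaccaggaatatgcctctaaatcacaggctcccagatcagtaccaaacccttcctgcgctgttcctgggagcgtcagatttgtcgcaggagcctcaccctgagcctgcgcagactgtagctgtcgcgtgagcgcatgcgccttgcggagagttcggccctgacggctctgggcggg
Kif11, chr19:37376132-37376431, plus strand: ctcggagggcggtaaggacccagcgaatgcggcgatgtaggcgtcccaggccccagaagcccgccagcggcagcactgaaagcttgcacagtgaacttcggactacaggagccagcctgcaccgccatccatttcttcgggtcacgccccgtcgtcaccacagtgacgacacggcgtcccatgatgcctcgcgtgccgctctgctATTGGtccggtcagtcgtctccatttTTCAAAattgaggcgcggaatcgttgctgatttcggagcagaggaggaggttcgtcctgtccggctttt
Kifc1, chr17:33890584-33890883, minus strand: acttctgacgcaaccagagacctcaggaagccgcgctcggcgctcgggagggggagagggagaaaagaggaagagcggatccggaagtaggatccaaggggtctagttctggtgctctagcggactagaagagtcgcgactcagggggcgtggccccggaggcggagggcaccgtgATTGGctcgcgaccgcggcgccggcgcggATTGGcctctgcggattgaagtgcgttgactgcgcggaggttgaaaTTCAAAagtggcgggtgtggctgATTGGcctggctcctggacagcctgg
Kifc5b, chr17:26916841-26917140, plus strand: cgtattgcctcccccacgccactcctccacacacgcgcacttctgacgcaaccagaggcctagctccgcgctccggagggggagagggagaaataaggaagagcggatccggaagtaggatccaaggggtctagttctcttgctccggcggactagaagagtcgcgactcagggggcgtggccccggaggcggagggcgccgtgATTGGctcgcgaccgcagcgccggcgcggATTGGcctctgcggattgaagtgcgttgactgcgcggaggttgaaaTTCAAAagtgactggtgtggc

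Of the 45 members 36 had a promoter window in the RefSeq table, 20 of them higher and 10 lower in spermatids. A CCAAT box was found in 19 of the 36 (52.8%), and in 41.1% of 27025 genes in all. The CHR element, known from promoters of cell cycle genes, was found in 14 of the 36 (38.9%), against 20.2% of all genes. It was present in 6 of the 10 members that were lower and in 7 of the 20 that were higher. It was also present in 1 of the 5 not past the threshold. Kifc1 and Kifc5b, whose windows are near copies, are both among the 6. Kif5b, Kif13b, Kif19a, Klc2 and Kifc2, all lower, had no window, and a link to direction was not tested. The X-box part GTTGCC was found in 10 of the 36 (27.8%, all genes 14.1%). Whole X-boxes, which factors of cilia genes read, were not searched for. The cyclic AMP response core was found in 5 (13.9%, all genes 8.4%), of which 3 held the whole palindrome TGACGTCA. The MYB site was found in 1 (2.8%, all genes 5.0%). An E2F core (TTGGCGC) was found in 2 (5.6%, all genes 2.8%). The members' windows had a median GC content of 63.3%, against 52.7% for all windows, and a match is a run of letters, not a measured binding site. In the Kif11 window the CCAAT box lay on the opposite strand with its first base 45 bases before the gene start and the CHR element 19 bases before it. The Kif2b window held 1 CCAAT box, 44 bases before the start, and no CHR element. Among windows not printed, that of Kif27, which was higher in spermatids, held CHR elements. That of Kif21a, the member with the largest fall, held none of the motifs. The windows of Kif27, Kif2c, Kif14 and Kif4 and a second window of Kif1a, all with a CHR element, lie wholly inside the gene annotated in GENCODE. Whether transcription starts there in these cells was not tested.

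Kinesin-2, the motor of intraflagellar transport, changed by subunit. Kifap3, the accessory subunit that joins the Kif3a and Kif3b motors to cargo (chr1:163779581-163917103, plus strand), was at 3853 and 3400 in spermatocytes and at 59452, 50781 and 44668 in spermatids. The log2 fold change of Kifap3 was 3.82 ± 0.14 (limma adjusted p = 1.1e-06), and its spermatocyte level of 7.02% of the spermatid level lay above that of every spermatid marker. Kif3a and Kif3b themselves moved little. Kif3b was at 20329 and 18377 in spermatocytes and at 32160, 27103 and 29750 in spermatids, 0.61 ± 0.10 higher on the log2 scale (limma adjusted p = 0.0015). With equal totals this difference was -0.03 and after quantile normalization -0.13. Kif3a was at 6330 ± 663 (SD, n = 2) and 7588 ± 682 (SD, n = 3) and did not pass the threshold (limma adjusted p = 0.074). Its call depended on the scaling: TMM factors made it higher in spermatids (log2 fold change 0.28), whereas rescaling to equal totals (-0.38) or by quantiles (-0.43) made it lower. Kif3c, another kinesin-2 motor, was at 891 and 865 in spermatocytes and at 188, 159 and 196 in spermatids. The difference for Kif3c was -2.28 ± 0.16 on the log2 scale (limma adjusted p = 2.0e-05). The row of Kif3c overlaps that of 1110002L01Rik over 2612 bases, and that row fell as well, from 3800 and 3596 to between 306 and 387. Which of the 2 rows took the reads of the overlap was not tested.

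Levels of different genes were compared as normalized counts per kilobase of the longest coding transcript (GENCODE vM21). On this scale Kifap3 was at 0.45 and 0.46 of Kif3a in the spermatocyte samples and at 5.62, 5.37 and 5.04 times Kif3a in the spermatid samples. The order of the subunits thus turned from Kif3b, Kif3a, Kifap3 and Kif3c to Kifap3, Kif3b, Kif3a and Kif3c. The groups did not overlap, and a two-sided exact permutation test gave p = 0.1 (0.13 adjusted over the 8 ratios computed), the smallest p that 2 against 3 samples can give.

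Kinesin-1 heavy chains, which carry organelles over long distances, were low in both cell types and changed hands. Kif5b, the heavy chain found in most tissues, was at 462 and 584 in spermatocytes and at 119, 142 and 133 in spermatids. It fell by 1.98 ± 0.19 on the log2 scale (limma adjusted p = 8.5e-05). Kif5c, known mainly from neurons, was at 315 and 318 in spermatocytes and at 3312, 1473 and 1476 in spermatids. The log2 fold change of Kif5c was 2.61 ± 0.35 (limma adjusted p = 0.00047), and 2.22 without spermatid replicate 1. Kif5a, the third heavy chain, ranged from 46.3 to 69.7 in spermatocytes and from 20.2 to 68.4 in spermatids and did not pass the threshold (log2 fold change -0.41, limma adjusted p = 0.52), with 0.11 when spermatid replicate 1 was left out. Per kilobase, Kif5b made up 59.0% and 62.7% of the 3 heavy chains in the spermatocyte samples, and Kif5c 95.5%, 86.2% and 87.4% in the spermatid samples.

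The light chains, which bind the cargo of kinesin-1, were far more abundant than the heavy chains. Per kilobase their sum was 37.5 and 31.0 times that of the heavy chains in spermatocytes, and 10.5, 19.8 and 20.9 times in spermatids. Klc2 was the main light chain throughout, at 13544 and 13395 in spermatocytes and at 9840, 10343 and 10796 in spermatids (log2 fold change -0.38 ± 0.08, limma adjusted p = 0.0049). Klc3, known as the light chain of spermatids that associates with the outer dense fibres and mitochondria of the sperm tail (chr7:19394440-19404070, minus strand), was at 30.2 and 30.8 in spermatocytes. It reached 2183, 1164 and 1225 in spermatids, a log2 fold change of 5.54 ± 0.29 (limma adjusted p = 5.4e-06). Its spermatocyte level was 2.0% of its spermatid level, close above the range of the spermatid markers. The Klc3 row overlaps that of Ercc2 over 1253 bases. The Ercc2 row was at 3762 and 3885 in spermatocytes and at 619 to 786 in spermatids. The part of Ercc2 reads in the Klc3 levels was not tested. Klc4 was at 804 and 831 in spermatocytes and at 1919, 1974 and 2117 in spermatids (log2 fold change 1.29 ± 0.10, limma adjusted p = 3.8e-05). Klc1 was at 577 and 450 in spermatocytes and at 530, 511 and 423 in spermatids, with overlapping groups (limma adjusted p = 0.73). Rescaling to equal totals (log2 fold change -0.71) or by quantiles (-0.50) gave a call of lower. The share of Klc2 in the light chains fell from 87.8% and 88.4% to 58.7%, 66.2% and 66.4%, while that of Klc3 went from 0.33% and 0.34% to 21.7%, 12.4% and 12.6%.

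**Figure D2:**
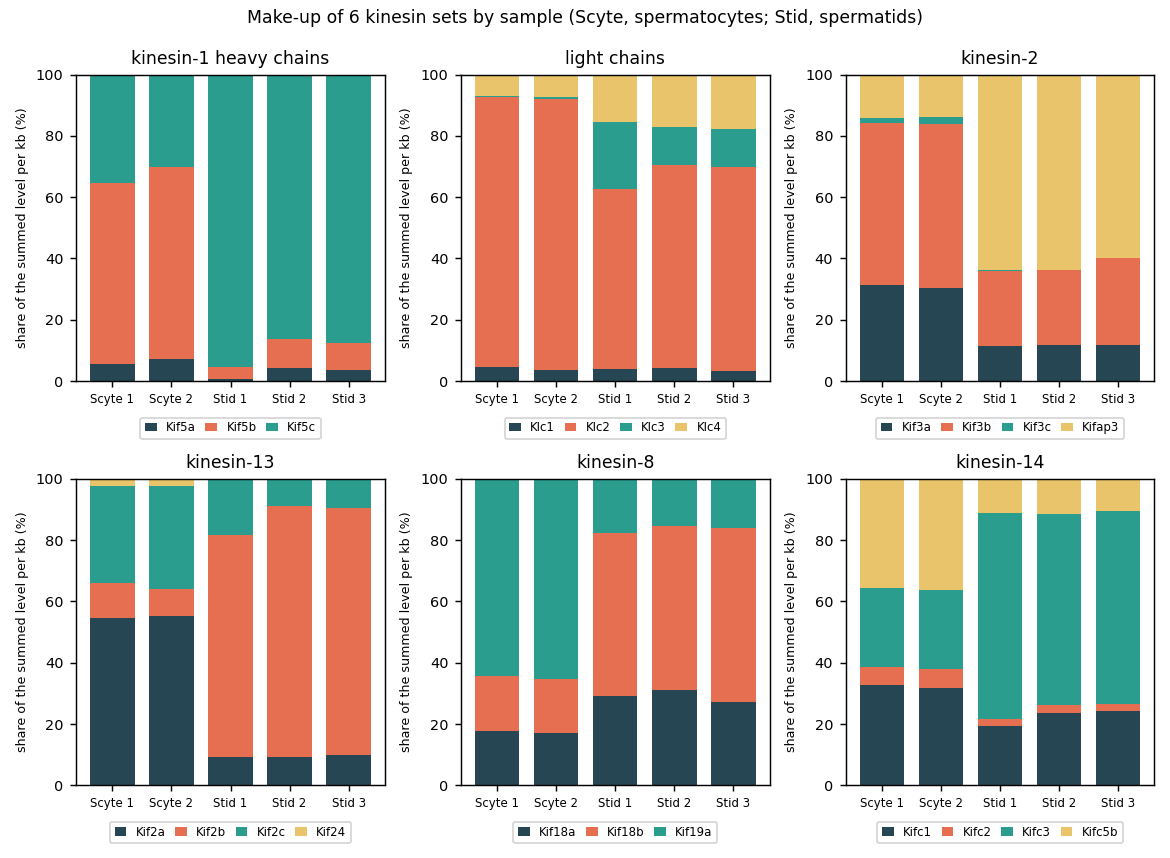
Share of each gene in the summed level per kilobase of its set, in percent, as stacked bars for the 2 spermatocyte samples (Scyte) and the 3 spermatid samples (Stid). In kinesin-13 the share of Kif2b was 11.4% and 8.7% in spermatocytes and 72.3%, 82.2% and 80.3% in spermatids.

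Within 9 sets of related members 37 such shares were computed. For 32 of them the exact permutation p was 0.1, the smallest possible (0.12 adjusted over the 37 shares, two-sided), and for the other 5 it was larger. In kinesin-13 the leading gene per kilobase was Kif2a in spermatocytes (54.5% and 55.3%) and Kif2b in spermatids. In kinesin-8 it was Kif19a in spermatocytes (64.4% and 65.3%) and Kif18b in spermatids (53.3%, 53.6% and 56.6%). With the union of all exons as the length the leading genes of these sets and of kinesin-1 and kinesin-2 were those named above.

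Of the 7 genes of kinesin-3, the family of vesicle transport, 4 were higher in spermatids and 2 lower. That is 57.1% and 28.6%, where all genes gave 40.6% and 36.5%. Kif1b, a carrier of mitochondria and synaptic vesicle precursors, was at 2350 and 2282 in spermatocytes and at 8181, 9276 and 9047 in spermatids (log2 fold change 1.93 ± 0.09, limma adjusted p = 4.1e-06). Kif1a, its close relative in neurons, was at 310 and 327 in spermatocytes and at 2763, 1616 and 1152 in spermatids (2.43 ± 0.34, limma adjusted p = 0.00052). Kif13a, which moves endosomal and Golgi cargo, was at 78.6 and 70.4 in spermatocytes and at 527, 491 and 524 in spermatids (2.77 ± 0.16, limma adjusted p = 8.9e-06). Kif16b, a motor of early endosomes, rose from 2137 ± 203 (SD, n = 2) to 4643 ± 118 (SD, n = 3). Kif13b, the relative of Kif13a, was at 5528 and 5605 in spermatocytes and at 3206, 3956 and 3724 in spermatids, so that the 2 relatives moved in opposite directions (Kif13b log2 fold change -0.62 ± 0.11, limma adjusted p = 0.0020). Kif14, which acts in cytokinesis rather than on vesicles, fell by 0.38 on the log2 scale (limma adjusted p = 0.017), a call that was lost when spermatocyte replicate 1 was left out (limma adjusted p = 0.12) or the eBayes trend was (0.051). Kif1c, a motor of secretory vesicles, was at 171 and 278 in spermatocytes and at 225, 431 and 292 in spermatids and did not pass the threshold (limma adjusted p = 0.22). Its log2 fold change of 0.48 turned to -0.16 with equal totals.

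In kinesin-4 the paralogs Kif21a and Kif21b, which restrain microtubule growth, moved in opposite directions. Kif21a (chr15:90933276-91049953, minus strand) was at 410 and 580 in spermatocytes and at 20.2, 10.9 and 6.29 in spermatids, where 30 reads were found in the 3 libraries together. Its log2 fold change of -5.32 ± 0.48 (limma adjusted p = 6.5e-05) was the largest fall among the members. Kif21b (chr1:136131401-136178014, plus strand) was at 266 and 249 in spermatocytes and at 3823, 2037 and 1943 in spermatids (log2 fold change 3.26 ± 0.29, limma adjusted p = 6.5e-05). Kif27, a protein of motile cilia, was at 5487 and 5119 in spermatocytes and at 33698, 26446 and 24339 in spermatids (2.40 ± 0.15, limma adjusted p = 1.1e-05). It made up 88.7% and 85.2% of the kinesin-4 level per kilobase in spermatocytes and 92.3% to 93.6% in spermatids. Kif7, its relative in Hedgehog signalling, was at 131 ± 7.90 (SD, n = 2) and 180 ± 43.5 (SD, n = 3) with overlapping groups (limma adjusted p = 0.17), and was called higher without spermatid replicate 1 (log2 fold change 0.65). With all 5 libraries the log2 fold change of Kif7 was 0.43, and -0.21 with equal totals. The Kif7 row overlaps that of 9330171B17Rik over 2076 bases. The 9330171B17Rik row was at 6501 and 6169 in spermatocytes and at 7589 to 8705 in spermatids. The part of its reads in the Kif7 levels was not tested. Kif4, a motor of chromosome arms and the only X-linked member, was low in both, at 79.7 and 132 in spermatocytes and 470, 417 and 434 in spermatids (2.09 ± 0.24). The pseudogene row Kif4-ps, which is not a member, stood at 7593 and 7104 in spermatocytes and at 949 to 1498 in spermatids, opposite to Kif4. Only 0.30% of the 50-base windows of the Kif4 transcript occur in Kif4-ps.

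Markers of Sertoli cells were lower in spermatids and differed between the spermatocyte samples. Spermatocyte replicate 2 held more of the Sertoli cell markers than replicate 1, by a median ratio of 1.37 over the 8 markers, with 7 of 8 higher. Over the tested members this ratio had a median of 0.96, and over all genes tested 0.97. It exceeded 1.2 in 7 of 44 members, or 15.9%, and in 21.2% of all genes, so the members' share was no higher than the background. Kif21a (1.41) and Kif5b (1.26) were among the 7. The part of Sertoli cells in the levels of Kif21a and Kif5b was not tested. The other members above 1.2 were Kif4, Kif1c, Kif5a, Kif26a and Kif26b, with group means between 47.8 and 440.

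Of the 6 tested members of kinesin-5, kinesin-6, kinesin-10 and kinesin-12, 3 were lower in spermatids, 1 higher and 2 short of the threshold. That is 50% lower and 16.7% higher, where all genes gave 36.5% and 40.6%. Division motors of other families are counted with their families. Of these, Kif2c, Kif4, Kif18a and Kif18b were higher in spermatids as deposited, and Kif14 and Kifc1 were lower. Kif11, the kinesin-5 that pushes spindle poles apart (chr19:37376380-37421859, plus strand), was at 10038 and 9291 in spermatocytes and at 3341, 2747 and 3083 in spermatids. It fell by 1.66 ± 0.11 on the log2 scale (limma adjusted p = 1.7e-05), and it shares 2.68% of its transcript's 50-base windows with other genes. Kif15, the kinesin-12 that backs up Kif11, was at 5466 and 5036 in spermatocytes and 4730, 3340 and 3157 in spermatids. Its difference of -0.51 (limma adjusted p = 0.036) was not past the threshold without either spermatocyte replicate or without spermatid replicate 2 or 3 (limma adjusted p between 0.10 and 0.17), nor without the filter on low values or an eBayes trend (0.069 and 0.095). The kinesin-6 genes, which organise the midzone, were split. Kif20a was at 13150 and 11880 in spermatocytes and at 11496, 8630 and 9753 in spermatids, without overlap but not past the threshold (limma adjusted p = 0.055), and it passed without spermatid replicate 1 (log2 fold change -0.45). All 3 rescalings gave the same call, at -0.32 by TMM, -0.98 by equal totals and -1.07 by quantiles. The Kif20a row overlaps that of Cdc23 over 2327 bases and that of Brd8 over 198. Both rows were lower in spermatids, with Cdc23 at 1903 and 1762 in spermatocytes and at 1003 to 1121 in spermatids. The part of their reads in the Kif20a levels was not tested. Kif20b fell from 5456 ± 382 (SD, n = 2) to 2964 ± 552 (SD, n = 3), whereas Kif23, which forms centralspindlin with Racgap1, rose from 1670 ± 138 to 3414 ± 429. Kif22, a motor of chromosome arms, was at 1794 ± 65.6 and 1889 ± 76.7 (limma adjusted p = 0.51), and became a member called lower once libraries were rescaled to equal totals (-0.57) or by quantiles (-0.43).

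Among the minus-end directed kinesin-14 genes 3 of 4 were lower in spermatids and 1 was higher. That is 75% and 25%, where all genes gave 36.5% and 40.6%. Kifc1, which focuses spindle poles and is known from the manchette and acrosome of spermatids, was at 1329 and 1252 in spermatocytes and at 701, 909 and 880 in spermatids (log2 fold change -0.64 ± 0.15, limma adjusted p = 0.0058). Kifc5b, its close copy on the same chromosome (chr17:26917090-26932579, plus strand), was at 1623 and 1595 in spermatocytes and at 447, 487 and 421 in spermatids (-1.83 ± 0.12, limma adjusted p = 1.6e-05). The 2 genes share much sequence: 45.8% of the 50-base windows of the Kifc1 transcript occur in Kifc5b, and their promoter windows above are 95.0% identical over 262 aligned bases. How the counting treated reads that match both is not given in the sources used here, so their separate levels are uncertain. Kifc2, known from neurons, was at 334 and 342 in spermatocytes and at 112, 146 and 114 in spermatids (-1.45 ± 0.20, limma adjusted p = 0.00049). Kifc3, known from cell junctions and epithelial transport, was at 1502 and 1456 in spermatocytes and at 3526, 3451 and 3281 in spermatids (1.21 ± 0.09, limma adjusted p = 3.1e-05). The row of Kifc2 overlaps that of Cyhr1 over 301 bases. The Cyhr1 row was at 16891 and 16392 in spermatocytes and at 26786 to 29093 in spermatids. The part of Cyhr1 reads in the Kifc2 levels was not tested. Per kilobase Kifc3 went from 25.7% of the kinesin-14 level in both spermatocyte samples to between 62.3% and 67.5% in spermatids.

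Kinesin-9 holds 2 motors known from cilia and flagella. Kif9, which is needed for normal sperm swimming, was at 22643 and 20946 in spermatocytes and at 33272, 31591 and 32183 in spermatids (log2 fold change 0.57 ± 0.08, limma adjusted p = 0.00069), a difference that became -0.08 with equal totals and -0.16 after quantile normalization. Kif6 was at 1052 and 1084 in spermatocytes and at 698, 488 and 552 in spermatids (-0.90 ± 0.17, limma adjusted p = 0.0025). The atypical kinesin-11 genes were low, with Kif26b at 42.0 and 53.6 in spermatocytes and at 208, 89.2 and 134 in spermatids, and Kif26a at 67.9 and 93.9 and at 116, 170 and 173. Rescaling to equal totals or leaving out spermatocyte replicate 1 ended the call on Kif26b (limma adjusted p 0.061 and 0.067). The call on Kif26a (limma adjusted p = 0.021) ended when libraries were rescaled to equal totals or by quantiles, and without spermatocyte replicate 1 or spermatid replicate 2 or 3.

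**Figure D3:**
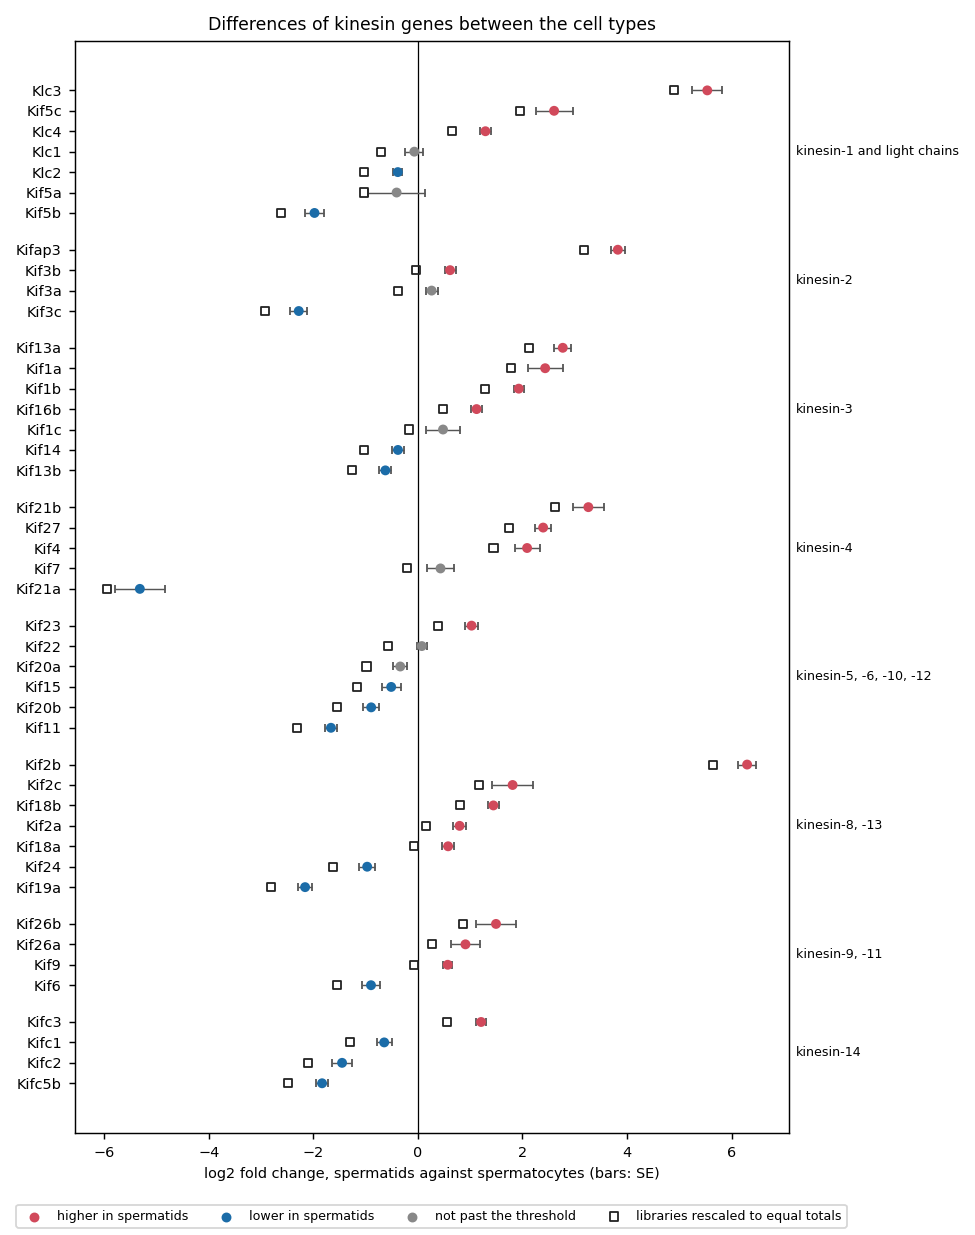
Log2 fold change of each tested kinesin gene, spermatids against spermatocytes, with bars for the standard error and colour for the call. Open squares give the value with libraries rescaled to equal totals, which lie to the left of the deposited scaling for every gene plotted and turn Kif3b to -0.03, Kif18a to -0.07 and Kif9 to -0.08.

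Ranked per kilobase over all 45 members, the order of levels differed between the cell types. In spermatocytes Kif9 was highest at a mean of 6845, followed by Klc2 (4250), Kif2a (3915), Kif3b (3434) and Kif20a (3406). In spermatids Kif2b was highest at 56052, followed by Kifap3 (12870), Kif9 (10160), Kif2c (9052) and Kif2a (6827). The place of Kif2c rested on spermatid replicate 1, where it was at 15216. Without that sample its mean was 5969, below the 6339 of Kif2a. Kif2b made up 41.9%, 46.9% and 43.9% of the summed level of all members in the spermatid samples and 2.0% and 1.5% in the spermatocyte samples. Kif9 was at 16.6% and 16.5% in spermatocytes and 7.3% to 8.8% in spermatids, although its own level was not lower there as deposited.

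Spermatid replicate 1 differed from the other spermatid samples in several members. It was above both others for 28 of the 44 members, 63.6%, and for 40.2% of all genes tested. On the log2 scale replicate 1 exceeded the mean of the other two spermatid samples by 1.35 for Kif2c, 1.17 for Kif5c, 1.00 for Kif1a, 0.94 for Kif21b, 0.89 for Kif26b and 0.87 for Klc3, against a median of 0.01 for all genes. This ratio was only 0.16 for Kif2b and 0.32 for Kifap3, and -1.57 for Kif5a. The 8 spermatid markers summed to 1534934 in replicate 1 and to 511485 and 493915 in replicates 2 and 3, with a median log2 ratio of 1.46. Within that list Prm1, Prm2, Tnp1, Tnp2 and Tssk6 were higher in replicate 1, while Acrv1, Spaca1 and Catsper3 were not above both other replicates. The part of spermatid stage in these ratios was not tested. Without replicate 1 the calls on Kif2c, Kif5c, Kif1a, Kif21b, Kif26b and Klc3 held, with log2 fold changes of 1.36, 2.22, 2.10, 2.95, 1.19 and 5.25.

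**Figure D4:**
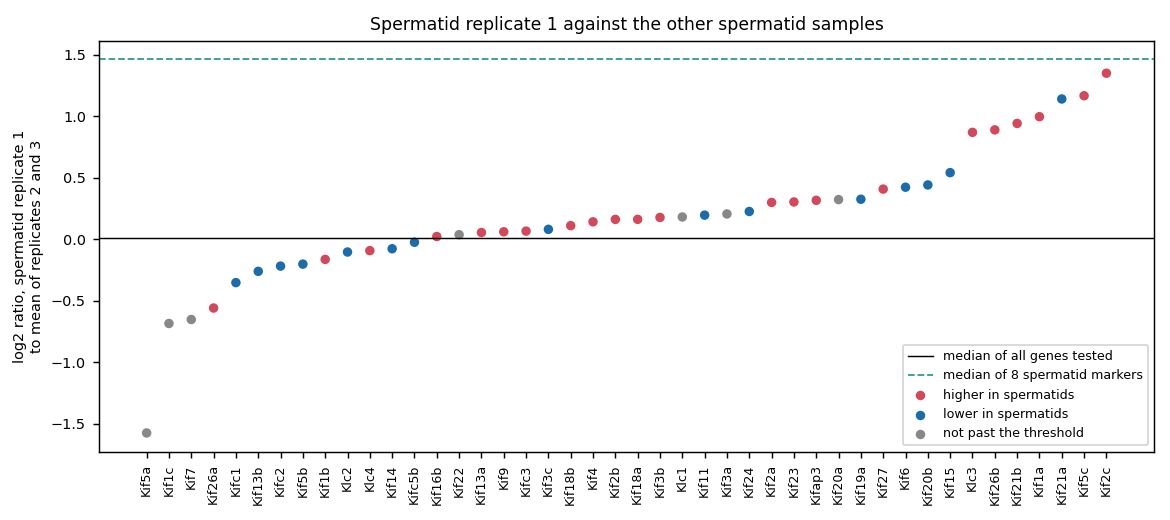
Log2 ratio of spermatid replicate 1 to the mean of spermatid replicates 2 and 3 for each tested kinesin gene, in order of the ratio. The solid line is the median of all genes tested (0.01) and the dashed line the median of 8 spermatid markers (1.46); Kif2c lies closest to the latter at 1.35.

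Proteins that join transport kinesins to cargo or regulate them were followed in a list of 39 genes, of which 37 were matched in 38 rows. Of these rows 21 were higher and 11 lower in spermatids, where all genes gave 40.6% and 36.5%, and the median log2 fold change was 0.38, against 0.07 for all genes. Grip1, an adaptor of Kif5, rose from 579 ± 55.6 (SD, n = 2) to 22179 ± 4589 (SD, n = 3), and Fez1, a kinesin-1 adaptor, from 17.8 ± 5.28 to 248 ± 99.5. Arl8a, a GTPase that recruits kinesins to lysosomes, fell from 753 ± 196 to 48.1 ± 15.1, and Kidins220 from 4695 ± 89.7 to 619 ± 26.2. The most abundant members were Ift172, a component of intraflagellar transport (56848 ± 870 and 75152 ± 986, log2 fold change 0.40), and Plekhm2, an adaptor of kinesin-1 on lysosomes (16890 ± 1221 and 18829 ± 1671, limma adjusted p = 0.22). With equal totals the counts turned to 12 higher and 21 lower (all genes 30.5% and 49.4%), and by quantiles to 13 and 19 (all genes 33.8% and 46.5%). The adaptor list was chosen with earlier results of these data known, so these comparisons are no independent test.

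Partners and regulators of spindle kinesins were followed in a list of 33 genes, of which 32 were matched in 34 rows and 33 rows were tested. Of these 20 were lower and 7 higher in spermatids, where all genes gave 36.5% and 40.6%, and the median log2 fold change was -0.70, against 0.07 for all genes. With equal totals 24 were lower and 4 higher (all genes 49.4% and 30.5%). This list was chosen with earlier results of these data known, so the comparison is no independent test. Ckap2, a spindle protein, fell from 2814 ± 8.57 (SD, n = 2) to 257 ± 55.1 (SD, n = 3), and Ccp110, the centriole cap protein that works with Kif24, from 10257 ± 107 to 999 ± 134. Mapre2, a protein of growing microtubule ends, rose from 71.2 ± 1.70 to 392 ± 38.3, and Clasp1, which stabilises microtubules, from 510 ± 9.86 to 2329 ± 1019. The most abundant members were Aurka, a spindle pole kinase (13214 ± 773 and 11924 ± 1444, limma adjusted p = 0.28), and Bub1, a checkpoint kinase, which rose from 5187 ± 117 to 10756 ± 585. Racgap1, the partner of Kif23, was at 5438 ± 364 and 4602 ± 206 (limma adjusted p = 0.051).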

How the data were processed

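RNA was extracted from the purified cells and made into stranded libraries of polyadenylated RNA, per the labels' protocols. The authors deposited 1 table of signal values, gene read counts that DESeq had divided by 1 size factor for each library. This is per the file headers and per the submitters' processing notes, and the notes also name STAR 2.4.0, SAMtools, Picard, FastQC and mm10. The read counter is not given in the sources used here. In each of the 5 libraries 100% of values were whole multiples of the value of 1 read (tolerance 0.001), so read totals were recovered. The spermatocyte libraries held 52784231 and 80384019 reads and the spermatid libraries 62249782, 84361908 and 76907629. Values were compared as log2(value + 1) with limma 3.58.1 in R 4.3.3 (eBayes with a trend) over the 28370 rows with a mean of at least 10, with Benjamini-Hochberg adjustment over all of them, so fold changes of low genes are understated. The method was tested on simulated data. edgeR 4.0.16 and DESeq2 1.42.0 on the recovered reads, other pseudocounts, filters and scalings, and leaving out each library were the alternatives, 15 in all. Levels per kilobase and promoters come from GENCODE vM21 and RefSeq (GRCm38.p6). Members, partner lists and markers were chosen with earlier results of these data known. Values in every sample are given for the 8 members with the largest called change in each direction (with 100 or more as the mean of the higher group), the 2 highest of each family group, the light chains and Kifap3. Of each partner list, the 2 highest members and the 2 largest changes in each direction are named, and other genes were named after their values were seen. One overlapping gene is not reported here.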

Additional observations from a re-analysis of the deposited data

How the results depend on the processing

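Over 15 alternatives, 29 of the 44 tested members kept their direction and their side of the threshold in every one. Scaling moved most of the rest. With equal totals the log2 fold change turned to -0.38 for Kif3a, -0.57 for Kif22, -0.0315 for Kif3b, -0.0687 for Kif18a and -0.0758 for Kif9, as well as -0.16 for Kif1c and -0.21 for Kif7, neither past the threshold, and after quantile normalization to -0.43 for Kif3a, -0.43 for Kif22, -0.13 for Kif3b and -0.16 for Kif9; by construction these scalings remove a difference in total between the cell types. The adaptor list had 12 higher and 21 lower at equal library totals, against 13 and 19 in quantile-normalized libraries, and the spindle partner list had 4 higher with equal totals. The calls on Kif14, Kif15, Kif26a, Kif26b and Kif2a were lost, and those on Kif3a, Klc1, Kif20a and Kif7 gained, under the alternatives named with their values above, and apart from the rescalings the cause was not tested. Among all genes 17263 were lower without a filter and 6029 with a minimum mean of 100, since the number of genes tested changes. Leaving out 1 library in turn turned the sign of Kif5a (-0.74 to 0.11) and Klc1 (-0.25 to 0.11), neither of them called, and gave 20 to 23 members higher (37.5% to 40.3% of all genes) and 13 to 16 lower (28.1% to 38.7%), and an arm left with 1 spermatocyte sample is assumed to vary like the spermatids. No paired analysis was possible because the labels give the samples no replicate numbers that link the cell types. With 2 and 3 samples, exact tests of single values cannot go below p = 0.1, and Kif12, with no read, could not be tested.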

Other observations

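Kinesin genes outside the symbol rule were high in spermatids. Stard9, a kinesin-3 relative of the pericentriolar material, has 2 rows in the table, one at 380 and 370 in spermatocytes and 13019, 13281 and 14625 in spermatids, the other at 210 and 262 and at 6195, 8066 and 8087. Cenpe, the kinetochore motor kinesin-7, was at 1531 and 1534 in spermatocytes and at 4020, 2404 and 3616 in spermatids (limma adjusted p = 0.0029). The row shared by Kif17 and Sh2d5 was at 809 and 624 in spermatocytes and at 46033, 45744 and 41105 in spermatids, and the 2 genes cannot be told apart in it.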
